A study of Mus musculus with 3 samples.

Results

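The 10 genes described here encode proteins that coat lipid droplets or carry fatty acids, and they were chosen by these roles and from earlier sums of their UMIs in the same 3 libraries. They were *Cidea*, *Cideb*, *Cidec*, *Plin2*, *Plin4*, *Plin5*, *Cd36*, *Fabp1*, *Fabp2* and *Fabp5*, 10 of the 55357 genes listed, and each symbol matched exactly 1 listed gene. Because the hepatocyte sums had been known when the genes were chosen, the levels and ratios below are a description. Primary liver cells of wild-type male C57BL/6 mice, of the substrain C57BL/6J in the study's methods, had been profiled by droplet single-cell RNA sequencing, in which each unique molecular identifier (UMI) marks 1 captured RNA molecule. All mice were 8 weeks old at the start, and each library pooled 2 mice, with hepatocytes and nonparenchymal cells mixed 1:1. The control library, labelled CON, came from untreated mice, whose diet the labels do not name beyond standard housing, so no diet matched to the high-fat diet is known. The HFD library came from mice fed for 4 months with a high-fat diet in which fat gave 60% of the energy. The CCl4 library came from mice kept on chow for 3 months and then given intraperitoneal injections of 0.1 mL of a 10% solution of the liver toxin CCl4, 2 per week for 4 weeks. With 1 library per condition there was no replicate check, no test was possible, and the condition, the pool of mice and the preparation of the library cannot be told apart.

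Hepatocytes take up fatty acids, store them as triglyceride in lipid droplets and release them again by lipolysis. The perilipins (PLIN) and the CIDE proteins sit on the droplet surface, where they control access of lipases and the fusion of droplets. CD36 brings fatty acids across the plasma membrane, and the fatty acid binding proteins (FABP) carry them through the cytosol. Many of the genes are targets of nuclear receptors of the PPAR family, which bind as partners of RXR to a direct repeat with 1 base between the repeats (DR1).

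For the genes whose hepatocyte level passed a fold of 2 between HFD and control, the bases before the RefSeq start of the gene are shown (GRCm38.p6). The DR1 repeat was the only letter pattern searched for. *Fabp1* (ENSMUSG00000054422, GENCODE M21 on GRCm38, chr6:71199827-71205023, plus strand) is shown for chr6:71199629-71199826, upstream of the gene and cut at its first GENCODE exon. *Cd36* (ENSMUSG00000002944, chr5:17781690-17888801, minus strand) is shown for chr5:17835897-17836146, which lies inside the gene in an intron of its longer transcripts. *Cidec* (ENSMUSG00000030278, chr6:113424634-113435760, minus strand) is shown for chr6:113435761-113436010, upstream of the gene. Capitals mark a DR1 repeat.
Fabp1: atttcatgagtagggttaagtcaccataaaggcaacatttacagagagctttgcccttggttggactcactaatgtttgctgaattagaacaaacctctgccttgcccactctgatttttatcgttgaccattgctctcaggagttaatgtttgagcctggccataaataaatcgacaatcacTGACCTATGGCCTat
Cd36: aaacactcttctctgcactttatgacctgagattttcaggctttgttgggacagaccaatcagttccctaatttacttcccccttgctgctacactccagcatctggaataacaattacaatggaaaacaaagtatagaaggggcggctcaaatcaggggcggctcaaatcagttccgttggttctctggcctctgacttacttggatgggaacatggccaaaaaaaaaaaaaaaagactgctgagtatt
Cidec: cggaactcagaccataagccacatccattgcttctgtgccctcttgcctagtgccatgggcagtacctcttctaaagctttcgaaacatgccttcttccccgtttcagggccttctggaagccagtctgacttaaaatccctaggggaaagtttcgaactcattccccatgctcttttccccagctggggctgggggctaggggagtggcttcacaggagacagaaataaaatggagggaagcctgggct
The search took 2 copies of AGGNCA with 1 base between them, on either strand, in the 250 bases before each RefSeq start. *Fabp1* held 1 match, on the strand opposite to the gene, from 15 to 3 bases before its first GENCODE exon. None of the other 9 windows of the genes held one, where 8 of the 10 genes had a window. Of all 32851 windows, 111 (0.338%) held such a repeat. The match is a string of letters and was not tested for binding.

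Cells were clustered without the 10 genes among the variable genes, and clusters were named "X-like" from marker genes. Hepatocyte-like cells numbered 4965 in the control library, 6407 in HFD and 7046 in CCl4. These cells lay in clusters that were each almost wholly of 1 library. The control cells formed clusters led by *Mt1*, *Saa2* and *Saa1*, the latter pair encoding acute-phase proteins, or by *Steap4* and *Il1r1*. The HFD cells formed clusters led by *Fabp5*, *Acaa1b* and *Inmt* or by *Cyp1a2*, *Slc1a2* and *Glul*, and the CCl4 cells clusters led by *Hamp2* or *G6pc*. From 4 to 9 of the 12 listed hepatocyte markers were raised in each. The libraries held 11245, 12984 and 12761 cell barcodes and 49613255, 34985786 and 34061186 UMIs for control, HFD and CCl4, and any pair of them shared 36 to 52 barcodes. Levels are summed UMIs scaled to a total of 1e6 (CPM) for each class and library. UMIs tag the 3′ ends of transcripts and capture differs between genes, so levels were compared within a gene. Intervals in parentheses are 95% intervals of the counting error, and they cover counting error only. T cell-like cells, which were assumed to hold little of these transcripts, gave the level taken as that of free RNA captured in droplets. Over 12 hepatocyte reference genes, the T cell-like level was a median of 0.339 of the hepatocyte-like level in the control library, 0.693 in HFD and 0.770 in CCl4. The T cell-like levels of the 10 genes are therefore given beside their hepatocyte levels, and their part in a difference was not tested. Since that share was larger in HFD and CCl4, taking off the T cell-like level removes more there. A gene with these shares and an equal hepatocyte level in each library would come out below control. Ratios below 1 after this step are therefore not read as a fall by themselves. In summed UMIs, fewer cells with a transcript and less of it per cell cannot be told apart.

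**Figure D1:**
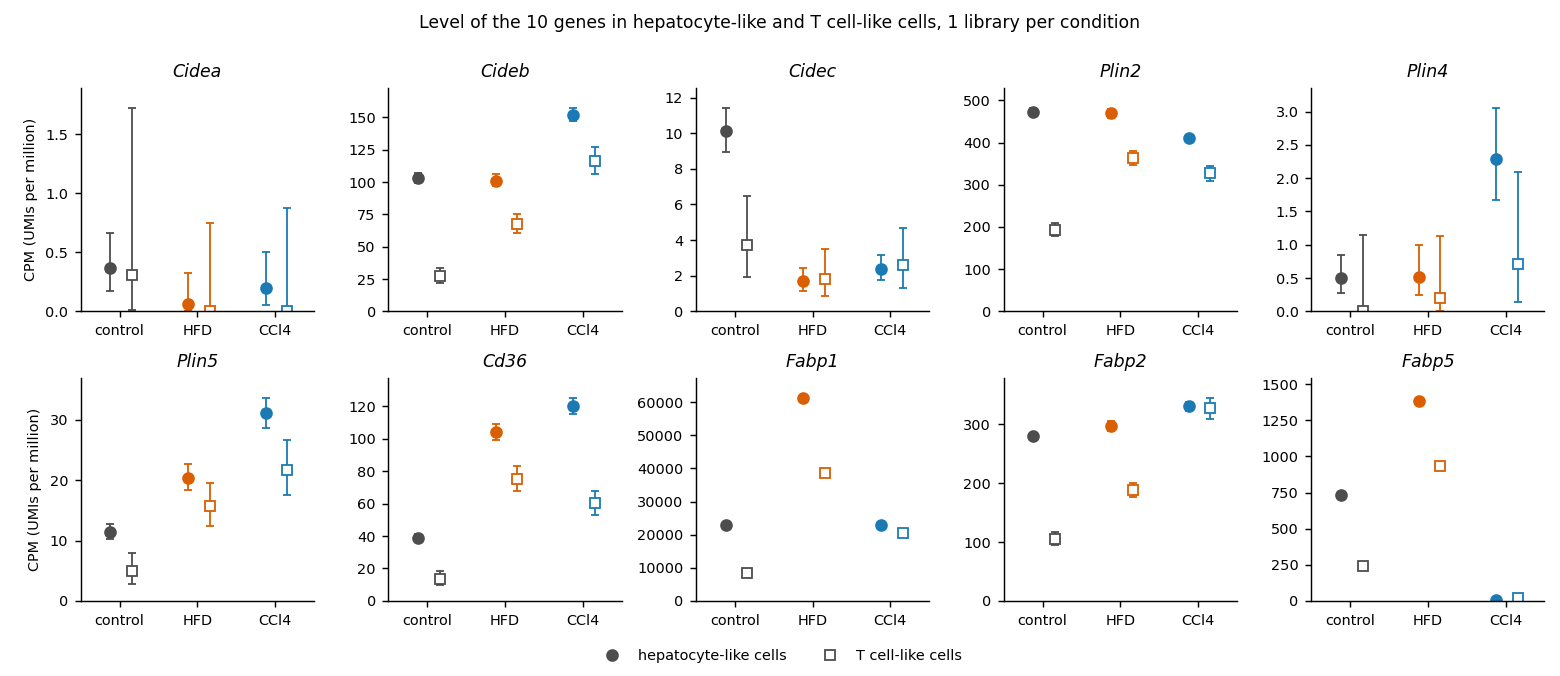
Level in CPM (y axis from 0) of each of the 10 genes in hepatocyte-like cells (filled circles) and T cell-like cells (open squares) of the control, HFD and CCl4 libraries (x axis), with 95% counting intervals. *Cd36* stood at 38.6, 104 and 120 CPM in hepatocyte-like cells, *Cidec* at 10.1, 1.68 and 2.39 CPM, and *Fabp5* fell from 732 CPM in control to 4.43 CPM in CCl4.

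Among the CIDE genes, *Cidec* was lower in hepatocyte-like cells of both treated libraries. *Cidec* encodes the protein that lets lipid pass between droplets in contact, so that the larger one grows. Its level was 10.1 CPM (8.97 to 11.4) in control, 1.68 CPM (1.13 to 2.41) in HFD and 2.39 CPM (1.77 to 3.16) in CCl4. The control interval lay above those of HFD and CCl4, which overlapped. The ratio to control was 0.166 (0.109 to 0.244) in HFD and 0.236 (0.170 to 0.320) in CCl4. In T cell-like cells the level was 3.70, 1.83 and 2.62 CPM in control, HFD and CCl4. In HFD and CCl4 the hepatocyte level therefore did not exceed the T cell-like level, with hepatocyte over T cell ratios of 0.917 (0.423 to 2.20) and 0.910 (0.467 to 1.94), and in control it did, at 2.74 (1.54 to 5.36). Among all genes tested, 1.18% had a lower fold than *Cidec* in HFD and 2.51% in CCl4.

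*Cideb*, the CIDE gene of normal hepatocytes with a role in loading lipid onto lipoprotein particles, was nearly level in HFD. Its hepatocyte level was 103 CPM (99.2 to 107) in control, 101 CPM (96.7 to 106) in HFD and 152 CPM (147 to 157) in CCl4. The T cell-like levels of 27.1, 67.2 and 116 CPM were further apart between the libraries than the hepatocyte levels. With them taken off, the ratio to control was 0.451 in HFD and 0.471 in CCl4, past the fold of 2 downwards. Because this step takes off a larger share in the treated libraries, no fall of *Cideb* is read from these ratios. *Cidea*, known from brown fat, was near the limit of detection, with 10 UMIs in control, 1 in HFD and 4 in CCl4 hepatocyte-like cells and 1, 0 and 0 in T cell-like cells. Its highest class was cholangiocyte-like cells in each library, at 2.56, 3.23 and 4.42 CPM from 2, 2 and 3 UMIs. The ratio of that class to hepatocyte-like cells was 7.05 (0.751 to 33.1) in control, 55.8 (2.90 to 3291) in HFD and 22.7 (3.32 to 134) in CCl4. Only the control interval included 1.

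Among the perilipins, *Plin2* moved little between the libraries and *Plin5* was higher in CCl4. *Plin2*, the main droplet coat of the liver, stood at 473 CPM (465 to 481) in control, 470 CPM (459 to 480) in HFD and 410 CPM (402 to 419) in CCl4. Its T cell-like levels were 193, 363 and 327 CPM. The hepatocyte levels of control and HFD overlapped, and the CCl4 level lay below both by less than the fold of 2. With the T cell-like levels taken off, *Plin2* was at 0.381 of control in HFD and 0.297 in CCl4, which is not read as a fall for the same reason as for *Cideb*. *Plin5*, which ties droplets to mitochondria in tissues that burn fat, stood at 11.4 CPM (10.2 to 12.7) in control, 20.3 CPM (18.3 to 22.6) in HFD and 31.1 CPM (28.7 to 33.6) in CCl4. The 3 intervals did not overlap. Ratios to control were 1.79 (1.53 to 2.09) in HFD and 2.73 (2.38 to 3.13) in CCl4. T cell-like levels of *Plin5* were 4.93, 15.7 and 21.7 CPM, and with these taken off the CCl4 ratio was 1.45 and the HFD ratio 0.721.

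*Plin4*, a perilipin of fat and muscle, was scarce in hepatocyte-like cells of control and HFD, at 0.508 CPM (0.278 to 0.852) and 0.522 CPM (0.238 to 0.990). In CCl4 it stood at 2.29 CPM (1.68 to 3.05), from 47 UMIs. The ratio of CCl4 to control was 4.51 (2.44 to 8.87), but both levels lay under the minimum of 5 CPM and the gene was not among those tested. Of the 47 UMIs, 9 came from 82 CCl4 cells of a cluster led by *Cyp1a2*, *Slc1a2* and *Glul* and made mostly of HFD cells, in which *Plin4* stood at 26.4 CPM (12.1 to 50.2). T cell-like cells held 0, 1 and 3 UMIs of *Plin4* in control, HFD and CCl4.

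*Cd36*, the fatty acid translocase, was higher in hepatocyte-like cells of both treated libraries. It stood at 38.6 CPM (36.3 to 41.0) in control, 104 CPM (99.0 to 109) in HFD and 120 CPM (115 to 125) in CCl4, and the intervals did not overlap. Ratios to control were 2.69 (2.49 to 2.90) and 3.11 (2.89 to 3.34). The share of hepatocyte-like cells with at least 1 *Cd36* UMI was 11.6% (10.7 to 12.5) in control, 22.1% (21.0 to 23.1) in HFD and 25.1% (24.1 to 26.2) in CCl4. After thinning every cell to 1000 UMIs, the shares were 3.04%, 9.23% and 10.0%. T cell-like cells had thinned shares of 1.41%, 7.33% and 5.87%, with median depths of 2452, 2201 and 2009 UMIs against 3804, 2293 and 2287 in hepatocyte-like cells. T cell-like levels were 13.6, 75.4 and 60.1 CPM. With them taken off, *Cd36* was 25.0, 28.4 and 59.9 CPM, a ratio of 1.14 for HFD and 2.39 for CCl4, so the fold of 2 was kept for CCl4 and not for HFD.

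The fatty acid binding proteins moved apart from each other. *Fabp1*, the liver form, stood at 22972 CPM (22916 to 23029) in control, 61131 CPM (61014 to 61248) in HFD and 22796 CPM (22731 to 22862) in CCl4. Ratios to control were 2.66 (2.65 to 2.67) in HFD and 0.992 (0.989 to 0.996) in CCl4. In T cell-like cells *Fabp1* stood at 8356, 38574 and 20565 CPM, and every T cell-like cell had at least 1 of its UMIs. The hepatocyte level less the T cell-like level was 14616 CPM in control, 22557 CPM in HFD and 2231 CPM in CCl4, and the ratio to control became 1.54 in HFD and 0.153 in CCl4. *Fabp2*, the intestinal form, stood at 280 CPM (273 to 286), 297 CPM (289 to 306) and 331 CPM (323 to 339) in control, HFD and CCl4. Its T cell-like levels were 106, 188 and 328 CPM, in CCl4 only 3.56 CPM below the hepatocyte level. With the T cell-like levels taken off, *Fabp2* was at 0.631 of control in HFD and 0.0205 in CCl4.

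*Fabp5*, the form known from skin and macrophages, showed the widest range. Hepatocyte-like cells held 732 CPM (722 to 742) in control and 1387 CPM (1369 to 1405) in HFD, but 4.43 CPM (3.57 to 5.44) in CCl4. In UMIs these were 20180, 23933 and 91. The CCl4 level was 165-fold lower than control (134 to 205), and among 8416 genes tested it had the second lowest fold. The share of hepatocyte-like cells with a *Fabp5* UMI was 82.8% (81.7 to 83.8) in control, 91.4% (90.7 to 92.0) in HFD and 1.23% (0.990 to 1.52) in CCl4. In T cell-like cells the shares were 33.9%, 84.8% and 3.67%. Thinned to 1000 UMIs, hepatocyte-like shares of *Fabp5* were 48.8%, 69.2% and 0.504% and T cell-like shares 15.9%, 58.0% and 1.82%. T cell-like levels were 243, 934 and 20.7 CPM, so the T cell-like level followed the hepatocyte level down in CCl4 and exceeded it there. It was 4.68 (3.45 to 6.35) of the hepatocyte-like level in CCl4, against at most 0.940 for the reference genes. B cell-like cells held 0.428 (0.249 to 0.701) of the T cell-like level. The T cell-like level of *Fabp5* in CCl4 is thus not read as that of free RNA alone. In hepatocyte-like cells HFD against control was 1.89 (1.86 to 1.93), just under the fold of 2, and on CPM with the T cell-like level taken off it was 0.925.

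A gene was called when CPM plus 1 differed by at least a fold of 2 and 1 of the libraries reached 5 CPM, which left 8 of the 10 genes tested. For HFD against control, 2 of the 8, *Cd36* and *Fabp1*, were higher, beside 5.01% of all 8365 genes tested, and 1, *Cidec*, was lower, beside 5.59%. Their median log2 fold was 0.44, against 0.02 over all genes tested. For CCl4 against control, 2 of the 8, *Cd36* and *Plin5*, were higher, beside 6.58% of 8416 genes tested, and 2, *Cidec* and *Fabp5*, were lower, beside 6.19%. Their median log2 fold was 0.12, against 0.02. With the T cell-like CPM of each gene taken off, 0 were higher and 3 lower in HFD, and 1 was higher and 6 were lower in CCl4. That step takes off a larger share in the treated libraries, and the share of all genes past the fold after it is not given. The part of free RNA in the counts was not tested. Nearest to the threshold on CPM plus 1, *Plin5* and *Fabp5* in HFD were 1.72-fold and 1.89-fold, outside it, and *Plin5* in CCl4 was 2.59-fold, inside it. The 10 genes were chosen with these sums known, so nothing is read from the counts against the shares of all genes. Both comparisons used the same control library.

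**Figure D2:**
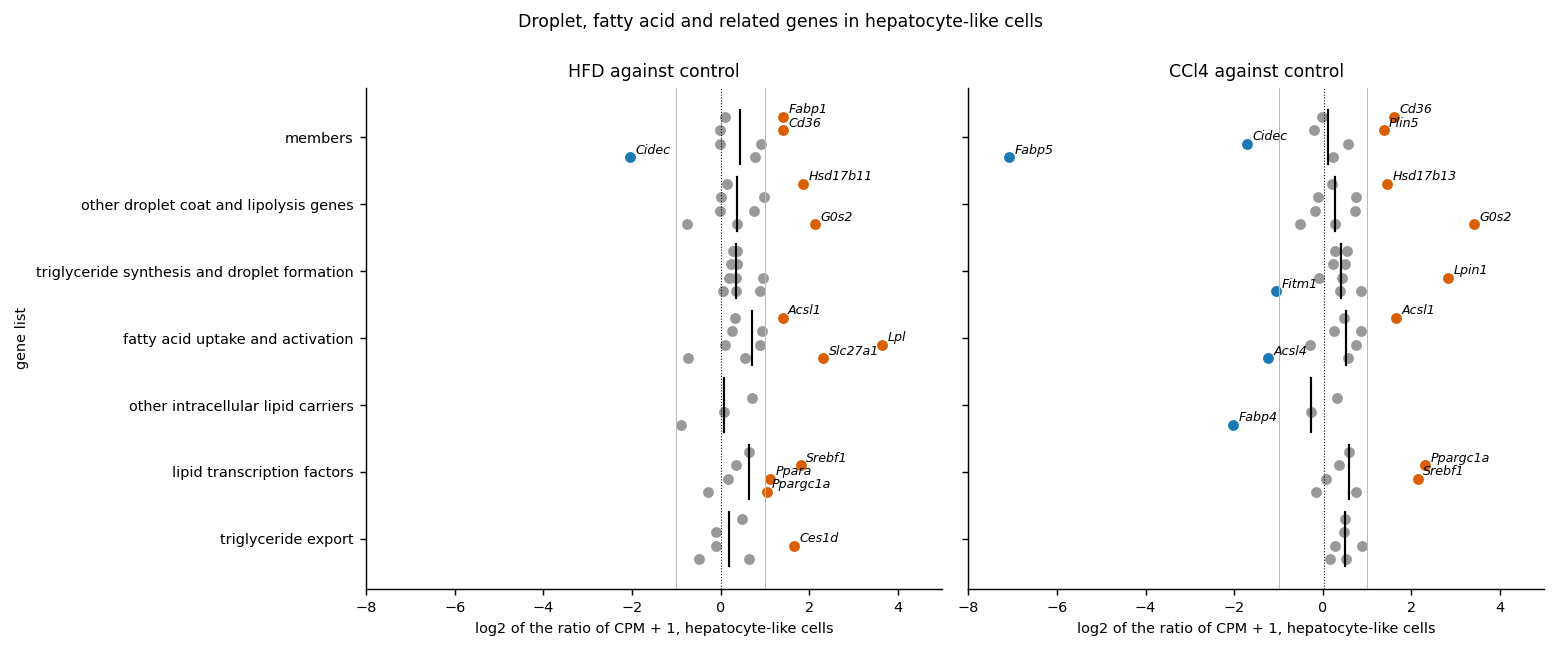
Log2 ratio of CPM plus 1 (x axis) in hepatocyte-like cells for each tested gene of 7 lists (y axis), HFD against control on the left and CCl4 against control on the right. Orange and blue points passed a fold of 2 upwards or downwards, black bars are list medians, grey lines mark a fold of 2 and the dotted line the median of all genes tested, 0.02. *Fabp5* in CCl4 lay farthest to the left and *Lpl* in HFD and *G0s2* in CCl4 farthest to the right.

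Other genes of the pathway were taken from 6 lists, and most of their HFD calls were not kept when T cell-like levels were taken off. With the T cell-like level of each gene taken off, 3 of the 9 HFD calls and 6 of the 9 CCl4 calls were kept. A kept call needed the same direction, a fold of 2 on CPM plus 1 and 5 CPM in 1 of the libraries. Direction and fold held for *Slc27a1* in HFD, at 3.70 against 0 CPM, but under 5 CPM. The same was true of *Fabp4* in CCl4, at 0 against 3.92 CPM. The calls kept were *Hsd17b11*, *Lpl* and *Srebf1* in HFD and *Lpin1*, *Fitm1*, *Acsl1*, *Acsl4*, *Ppargc1a* and *Srebf1* in CCl4. Over all genes tested, before this step, 5.01% were higher and 5.59% lower in HFD, and 6.58% were higher and 6.19% lower in CCl4. The shares after it are not given. The step takes off a larger share in the treated libraries, which by itself lowers ratios to control. All 9 HFD calls were higher, whereas the CCl4 calls included the lower *Fitm1*, *Acsl4* and *Fabp4*. The kept counts of HFD and CCl4 are therefore not compared. The lists were chosen with earlier results known, so nothing is read from their counts against these shares. Of 12 further droplet coat and lipolysis genes, 9 were tested, and 2 were higher and 0 lower in each treated library. *G0s2*, an inhibitor of the lipase that starts droplet lipolysis, stood at 88.5 CPM in control, 394 CPM in HFD and 954 CPM in CCl4, ratios of 4.46 (4.25 to 4.67) and 10.8 (10.3 to 11.2). T cell-like cells held 51.2, 325 and 950 CPM of it, so that 3.21 CPM remained in CCl4 against 37.4 CPM in control when these were taken off, past the fold of 2 downwards. The droplet enzyme *Hsd17b11* was 3.72-fold higher in HFD (3.48 to 3.97) and its relative *Hsd17b13* 2.73-fold higher in CCl4 (2.65 to 2.82), or 2.38-fold and 1.32-fold with the T cell-like levels taken off. Of 12 genes of triglyceride synthesis and droplet formation, 10 were tested and none was called in HFD. In CCl4 the phosphatidate phosphatase *Lpin1* was higher, at 720 CPM against 101 CPM, a ratio of 7.15 (6.86 to 7.45), and *Fitm1*, a protein of droplet budding, was lower at 0.470 (0.422 to 0.522).

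Among 11 genes of fatty acid uptake and activation, 10 were tested in HFD and 3 were higher, with 0 lower. The lipoprotein lipase gene *Lpl* stood at 1.12 CPM in control and 25.5 CPM in HFD, a ratio of 22.7 (15.7 to 33.8), and at 0.828 CPM in CCl4. T cell-like cells held 0.617 CPM of *Lpl* in control and 14.3 CPM in HFD. The fatty acid transporter gene *Slc27a1* was 6.28-fold higher (4.94 to 8.05) and the acyl-CoA synthetase gene *Acsl1* 2.64-fold higher (2.56 to 2.72) in HFD, with T cell-like levels of 3.39 and 15.9 CPM for *Slc27a1* and 76.1 and 408 CPM for *Acsl1* in control and HFD. In CCl4, where 8 were tested, *Acsl1* was 3.15-fold higher (3.05 to 3.24) and *Acsl4*, a synthetase that prefers arachidonic acid, was lower at 0.423 (0.397 to 0.450). Of 6 other lipid carriers 3 were tested, and only *Fabp4*, the form of fat cells and macrophages, was called, lower in CCl4 at 0.208 (0.163 to 0.261), with 4.14 CPM beside 14.1 CPM in T cell-like cells. Of 9 lipid transcription factors 7 were tested, and *Srebf1*, the regulator of fatty acid synthesis, was higher in HFD at 3.56 (3.31 to 3.84) and in CCl4 at 4.49 (4.19 to 4.83). *Ppargc1a* was higher at 2.21 (1.83 to 2.67) and 5.47 (4.67 to 6.44), and *Ppara*, the receptor for fatty acids that drives their oxidation, at 2.24 (2.01 to 2.49) in HFD. With the T cell-like levels taken off, *Ppara* was at 0.454 of control in HFD, past the fold of 2 downwards, *Ppargc1a* at 1.44 in HFD and 4.71 in CCl4, and *Srebf1* at 3.59 and 9.35. Of 6 triglyceride export genes, all 6 were tested and *Ces1d* alone was called, higher in HFD at 3.19 (3.01 to 3.39), or 1.19 with the T cell-like levels taken off. List medians in HFD and CCl4 were 0.37 and 0.27 for the coat genes, 0.34 and 0.41 for synthesis, 0.71 and 0.52 for uptake, 0.08 and -0.27 for carriers, 0.65 and 0.59 for transcription factors and 0.20 and 0.50 for export. The median over all genes tested was 0.02 in HFD and in CCl4.

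**Figure D3:**
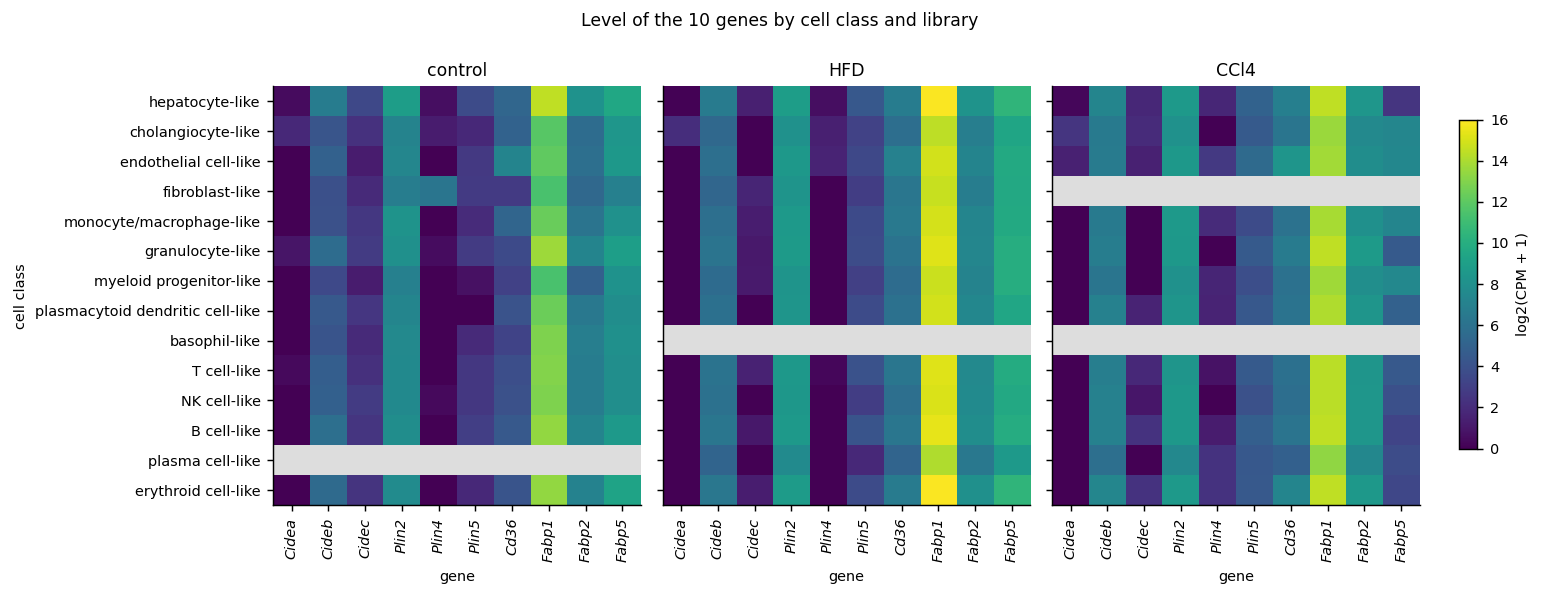
Colour shows log2 of CPM plus 1 for each of the 10 genes (x axis) in 14 cell classes (y axis) of the control, HFD and CCl4 libraries. Grey rows are classes with fewer than 50 cells. In CCl4 *Fabp5* was dark in hepatocyte-like cells and brighter in cholangiocyte-like, endothelial cell-like, monocyte/macrophage-like and myeloid progenitor-like cells.

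Outside hepatocyte-like cells, 39 of 350 levels of the genes, each relative to hepatocyte-like cells, were above those of hepatocyte reference genes. A gene counted as above the reference range in a class when the lower end of its ratio to hepatocyte-like cells exceeded the ratios of all 12 reference genes in the same class and library. The 350 pairs joined a gene with a class and library of at least 50 cells. The share of all genes above the range by this rule is not given, so nothing is read from the count of 39. That count also rose with another base or reference, as given under the processing below. *Fabp5* gave 17 of the 39 pairs, *Plin2* 8, *Cd36* 7, *Cidea* 3, *Fabp1* 2, and *Plin4* and *Fabp2* 1 each, while *Cideb*, *Cidec* and *Plin5* gave 0. Of the *Fabp5* pairs, 10 were of CCl4, where the hepatocyte-like level under them was 4.43 CPM, and they included T cell-like cells themselves, at a ratio of 4.68, and B cell-like and NK cell-like cells, which were at 0.428 (0.249 to 0.701) and 0.672 (0.361 to 1.17) of the T cell-like level. Set against T cell-like cells instead, 53 levels had a lower end above 1, 12 of them of *Fabp5*. The levels of *Cideb* in the 12 other classes of control ran from 10.7 to 55.8 CPM, those of *Fabp2* from 29.4 to 147 CPM and those of *Fabp1* from 2702 to 12721 CPM, with hepatocyte-like cells first in each order. In CCl4 hepatocyte-like cells ranked 2 for *Cideb*, 5 for *Fabp2* and 3 for *Fabp1* among 12 classes. Of the classes ranked above them, only granulocyte-like cells for *Fabp2* exceeded them beyond counting error, at 1.28 (1.01 to 1.60).

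**Figure D4:**
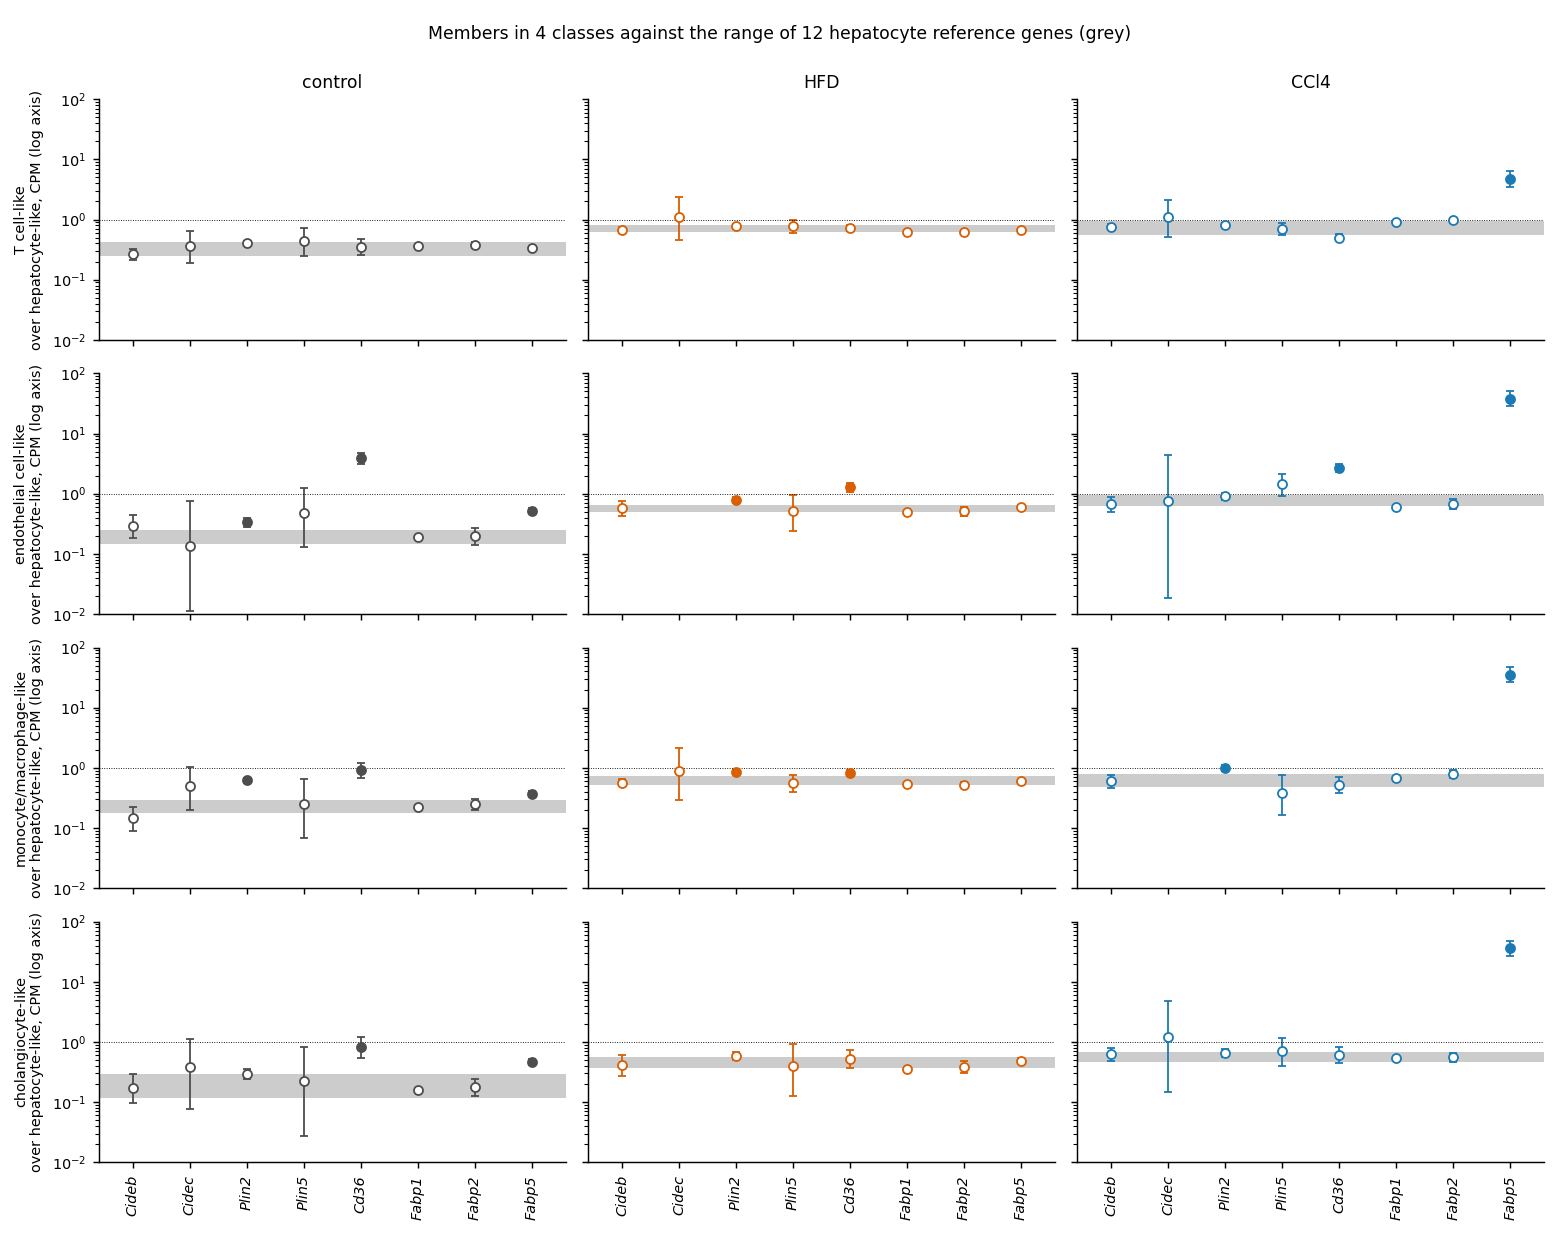
Ratio of CPM in 4 classes over hepatocyte-like cells (y axis, log scale) for 8 of the genes (x axis) in each library, with 95% counting intervals. The grey band is the range of the 12 reference genes, filled points have their lower end above it, and the dotted line marks 1. In endothelial cell-like cells *Cd36* lay above the band in all 3 libraries, and in CCl4 *Fabp5* lay above it in all 4 classes.

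*Cd36* was highest in endothelial cell-like cells, a known site of the protein in liver sinusoids. The level there was 150 CPM (123 to 180) in control, 132 CPM (110 to 157) in HFD and 326 CPM (280 to 377) in CCl4, from 111, 128 and 181 UMIs. Ratios to hepatocyte-like cells of the same library were 3.88 (3.16 to 4.72), 1.27 (1.05 to 1.52) and 2.72 (2.32 to 3.16), and ratios to T cell-like cells were 11.0 (7.72 to 16.0), 1.75 (1.42 to 2.14) and 5.43 (4.46 to 6.60). Endothelial cell-like cells led the order of classes in each library, and the next class was below them beyond counting error each time. The HFD level overlapped control, at a ratio of 0.879 (0.677 to 1.14), and the CCl4 level was 2.18-fold higher than control (1.71 to 2.78). With the T cell-like level taken off, 136, 56.4 and 266 CPM remained in control, HFD and CCl4. In control the median reference gene stood at 0.179 of its hepatocyte-like level in this class and 0.339 in T cell-like cells. That step may thus take off too much, and whether endothelial *Cd36* changed in HFD is not read from either set of values. In HFD, monocyte/macrophage-like cells held 86.1 CPM of *Cd36* (77.4 to 95.6), 1.14 of the T cell-like level (0.985 to 1.33), and 670 of them formed a cluster led by *Adgre4*, *Ear2* and *Treml4* with 129 CPM (112 to 147). The cluster led by *Lyz2* and *Chil3* held 56.4 CPM (47.0 to 67.2) in the same library, below the T cell-like 75.4 CPM. In control, *Cd36* was higher in the monocyte/macrophage-like cluster led by complement genes *C1qa*, *C1qc* and *C1qb*, with 85.4 CPM (58.1 to 121) against 11.3 CPM (5.64 to 20.2) in the *Lyz2* cluster.

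*Plin2* was above the reference range in monocyte/macrophage-like cells of all 3 libraries, at 292 CPM (264 to 321), 403 CPM (384 to 423) and 404 CPM (357 to 454), and above the T cell-like level there, at 1.51 (1.33 to 1.71), 1.11 (1.04 to 1.19) and 1.23 (1.08 to 1.41). Both also held in granulocyte-like cells of control and HFD. In endothelial cell-like cells of control and HFD and myeloid progenitor-like cells of control, *Plin2* was above the reference range but not above the T cell-like level, at 0.818 (0.666 to 0.998), 1.02 (0.912 to 1.15) and 0.630 (0.552 to 0.718) of it. In CCl4 the monocyte/macrophage-like level was 0.984 of the hepatocyte-like level (0.870 to 1.11), so these neighbours in the order did not differ beyond counting error. *Plin4* stood at 74.0 CPM (48.7 to 108) in fibroblast-like cells of control, 146-fold above hepatocyte-like cells (73.7 to 300). All 27 of its UMIs there came from 53 cells led by the smooth muscle genes *Acta2*, *Tagln* and *Myh11*, with 98.7 CPM (65.0 to 144), while 23 cells led by *Dcn* and *Col3a1* held 0. In CCl4, 18 cells of the same smooth muscle cluster held 7 UMIs, 147 CPM (59.0 to 303). In HFD, 10 cells of that cluster held 0 (0 to 118 CPM).

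In CCl4, *Fabp5* was higher than in hepatocyte-like cells beyond counting error in 9 other classes, and 4 of these stood above the T cell-like level. Myeloid progenitor-like cells held 179 CPM (142 to 222), endothelial cell-like cells 169 CPM (137 to 207), cholangiocyte-like cells 159 CPM (131 to 192) and monocyte/macrophage-like cells 157 CPM (129 to 190). These 4 classes did not differ from their neighbours in the order beyond counting error, and the next class, plasmacytoid dendritic cell-like cells, held 30.4 CPM (17.0 to 50.2). Hepatocyte-like cells ranked last of 12 classes. Compared with control, the levels were 0.452 (0.354 to 0.573) in endothelial cell-like, 0.465 (0.368 to 0.583) in cholangiocyte-like, 0.575 (0.460 to 0.714) in monocyte/macrophage-like and 0.637 (0.501 to 0.801) in myeloid progenitor-like cells, beside a T cell-like level of *Fabp5* of 243 CPM in control and 20.7 CPM in CCl4. With the T cell-like level taken off, control and CCl4 levels were 132 and 149 CPM in endothelial cell-like and 100 and 138 CPM in cholangiocyte-like cells. They were 30.6 and 136 CPM in monocyte/macrophage-like and 37.8 and 158 CPM in myeloid progenitor-like cells. In control, however, the median reference gene stood at 0.339 of its hepatocyte-like level in T cell-like cells. In these 4 classes it stood at 0.179, 0.186, 0.215 and 0.109, in the same order. The T cell-like level may thus take off too much there, and no direction is read from these values. In CCl4, 13.6% of all *Fabp5* UMIs were in hepatocyte-like cells, against 74.5% in control and 60.6% in HFD, where hepatocyte-like cells held 60.3%, 55.7% and 49.3% of all UMIs.

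Hepatocyte-like cells fell into clusters whose median cell had 2% or more of its UMIs from mitochondrial genes and clusters below that, and the genes differed between them. The clusters of at least 2% held 31.0% of hepatocyte-like cells in control, 18.3% in HFD and 43.3% in CCl4. *Cd36* was higher in them, at 67.7 against 10.0 CPM in control, 177 against 77.3 CPM in HFD and 159 against 67.2 CPM in CCl4. *Fabp1* was lower in them in every library, with ratios of 0.336, 0.471 and 0.450, and so were *Fabp2* (0.322, 0.382 and 0.379) and *Fabp5* (0.321, 0.344 and 0.487). *Plin2* differed little, with ratios of 0.952, 0.954 and 0.900. Since the mix differed between libraries, and *Alb* was 3.79-fold, 1.76-fold and 1.61-fold higher in the clusters of at least 2%, the comparisons were repeated within each kind. In clusters of at least 2%, *Cd36* was 2.61-fold higher in HFD and 2.35-fold in CCl4, and in clusters below 2% it was 7.73-fold and 6.72-fold higher. The *Cd36* levels in the clusters below 2%, 10.0, 77.3 and 67.2 CPM, were close to the T cell-like levels of 13.6, 75.4 and 60.1 CPM. *Fabp1* in HFD was 2.91-fold and 2.08-fold higher, *Plin5* in CCl4 3.03-fold and 2.43-fold higher, *Cidec* in HFD at 0.152 and 0.188 and in CCl4 at 0.208 and 0.271 of control, and *Fabp5* in CCl4 at 0.00864 and 0.00569. Each of the 7 calls was made in both kinds of cluster before any T cell-like level was taken off. *Fabp5* in HFD, which was not called, was at 1.63 (1.56 to 1.71) of control in clusters of at least 2%. Below 2% it stood at 1681 CPM in HFD against 1104 CPM in control. Both differences were smaller than over all cells.

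Zonation was measured by ordering the hepatocyte-like cells of each library by their pericentral against periportal landmark UMIs and comparing the upper with the lower of 3 equal groups. This order did not use the 10 genes. *Cd36* had the steepest gradient, 10.2-fold pericentral in control (8.54 to 12.3), at 108 against 10.5 CPM. In HFD the ratio was 1.93 (1.73 to 2.15), at 154 against 79.9 CPM, and in CCl4 0.890 (0.808 to 0.979), at 117 against 131 CPM. The pericentral level of *Cd36* thus differed less between libraries than the periportal level. The landmarks themselves were not equally far apart in each library. Pericentral *Cyp2e1* had ratios of 34.6, 4.75 and 24.3 in control, HFD and CCl4, and periportal *Cyp2f2* 0.106, 0.258 and 0.611. *Pck1*, listed as periportal, was at 1.09 in control. The part of this in the *Cd36* ratios was not tested. Within clusters of at least 2% mitochondrial UMIs, *Cd36* was pericentral in all 3 libraries, at 13.6 (10.9 to 17.3), 2.44 (2.03 to 2.93) and 1.48 (1.33 to 1.66). There the periportal level was 14.2 CPM in control, 101 CPM in HFD and 136 CPM in CCl4, beside T cell-like levels of 13.6, 75.4 and 60.1 CPM. In clusters below 2%, which held most hepatocyte-like cells of each library, the control ratio was only 1.97 (1.30 to 3.01), at 14.3 against 7.25 CPM. The HFD and CCl4 ratios there were 1.55 (1.33 to 1.81) and 0.959 (0.781 to 1.18). The steep control gradient of *Cd36* was thus that of the clusters of at least 2%.

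**Figure D5:**
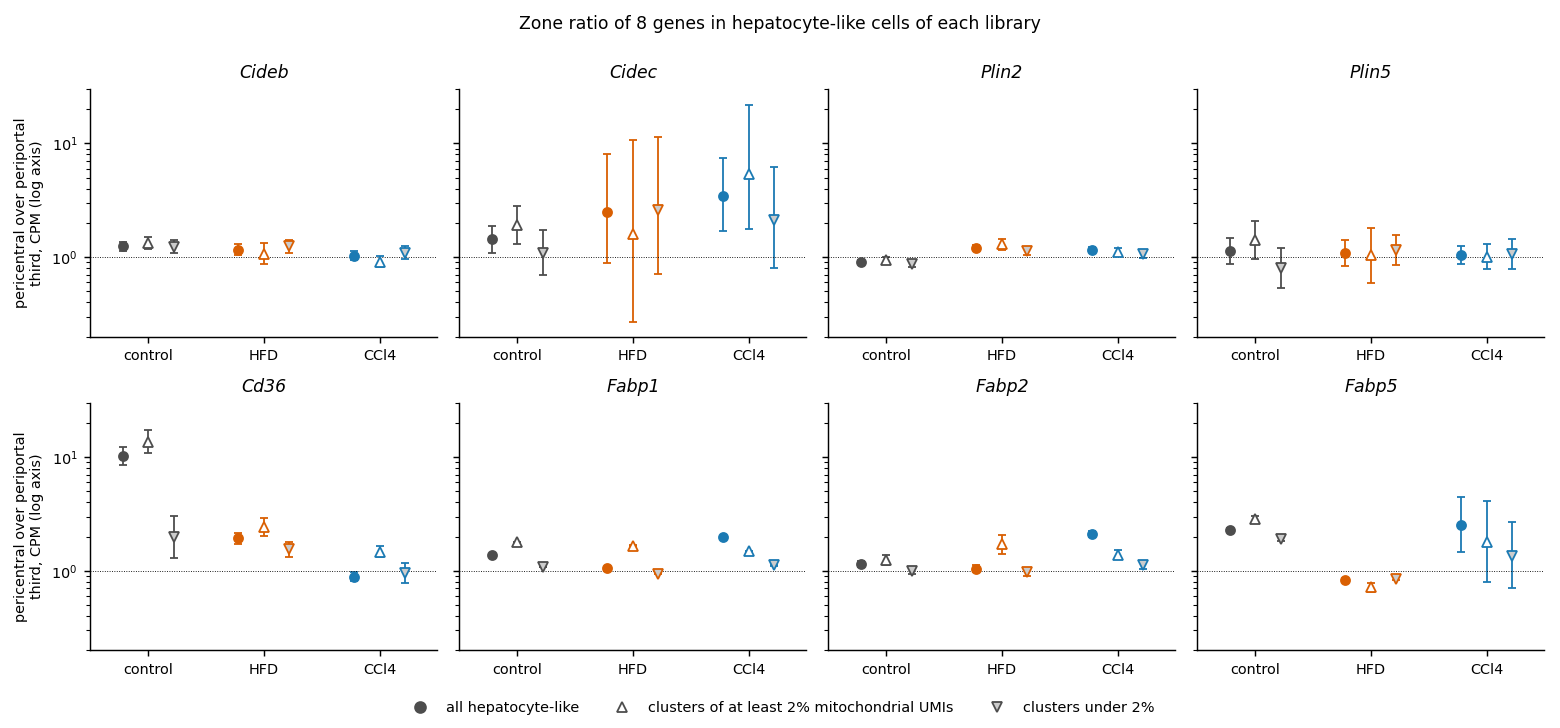
Ratio of CPM in the pericentral over the periportal of 3 equal groups of hepatocyte-like cells (y axis, log scale) for 8 of the genes in each library (x axis), for all cells, clusters of at least 2% mitochondrial UMIs and clusters below 2%, with 95% counting intervals and a dotted line at 1. *Cd36* fell from 10.2 in control to 1.93 in HFD and 0.890 in CCl4, and *Fabp1* in HFD lay on opposite sides of 1 in the 2 kinds of cluster.

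*Fabp1* was the only one of the 10 genes with the interval on the same side of 1 in all 3 libraries, pericentral at 1.37 (1.36 to 1.38), 1.06 (1.05 to 1.06) and 1.97 (1.96 to 1.99). In clusters of at least 2% it was pericentral at 1.79, 1.67 and 1.49, but in clusters below 2% the HFD ratio was 0.946 (0.942 to 0.951), so the direction in HFD depended on the kind of cluster. *Fabp2* was pericentral over all cells in control at 1.16 (1.09 to 1.22) and CCl4 at 2.10 (1.98 to 2.22). In HFD its interval included 1, at 1.04 (0.975 to 1.12). The clusters of at least 2% had *Fabp2* pericentral in all 3 libraries, at 1.25 (1.12 to 1.39), 1.71 (1.40 to 2.08) and 1.39 (1.26 to 1.54). Below 2% its control and HFD intervals included 1, at 0.991 (0.930 to 1.06) and 0.978 (0.910 to 1.05). The CCl4 ratio there was 1.12, pericentral. Its CCl4 ratio over all cells thus exceeded that in either kind of cluster, and the part of their mix in it was not tested. *Cideb* was pericentral in control at 1.24 (1.14 to 1.35) and HFD at 1.16 (1.04 to 1.30). In control this held in both kinds of cluster. In HFD it held below 2%, at 1.24 (1.08 to 1.42), but not in clusters of at least 2%, at 1.07 (0.863 to 1.32). *Cidec* was pericentral in control at 1.43 (1.08 to 1.89) and CCl4 at 3.43 (1.68 to 7.43). In clusters of at least 2% these ratios were 1.93 (1.31 to 2.84) and 5.36 (1.75 to 21.9). Below 2% both intervals included 1, at 1.09 (0.690 to 1.72) and 2.13 (0.803 to 6.22). The CCl4 ratios rested on few UMIs, 27 against 12 over all cells and 17 against 4 in clusters of at least 2%. In CCl4 the hepatocyte-like level of *Cidec*, 2.39 CPM, did not exceed the T cell-like 2.62 CPM. *Plin5* had intervals that included 1 in each library, from 1.04 to 1.13.

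The genes whose pattern was most like each of the 10 were named by the Pearson correlation of log2(CPM plus 1) over 38 pairs of a class and library, among 11582 genes. These points share libraries and free RNA, and the values are a description. For *Fabp1* they were *Chchd10* (0.99), *Adh1* (0.99) and *Decr1* (0.98), for *Fabp2* *Scp2*, *Apoc4* and *Mup3* (0.97 each), and for *Cideb* *Mat1a* (0.97), *Arg1* (0.96) and *Otc* (0.96). For *Plin2* they were *Idh1* (0.94), *Cdo1* (0.94) and *Asgr1* (0.93), for *Plin5* *Hsd17b13* (0.91), *Aldh6a1* (0.91) and *Mug1* (0.90), and for *Cd36* *Gm4951* (0.89), *Cmtm8* (0.89) and *Ddah1* (0.86). For *Cidec*, the most like were *Fam25c* (0.76), *Steap4* (0.74) and *Serpina3n* (0.73). In hepatocyte-like cells *Steap4* stood at 1161 CPM in control, 51.0 CPM in HFD and 122 CPM in CCl4, high in the same library as *Cidec*. For *Fabp5* they were *Slco1a1* (0.85), *Hsd3b5* (0.84) and *Cyp4a12a* (0.84). *Slco1a1* stood at 133, 200 and 9.60 CPM, *Hsd3b5* at 15.5, 37.7 and 0.292 CPM and *Cyp4a12a* at 106, 208 and 5.75 CPM in control, HFD and CCl4, the same order of libraries as *Fabp5*. In T cell-like cells *Steap4* stood at 341, 35.0 and 56.5 CPM and *Slco1a1* at 46.2, 135 and 6.44 CPM. The levels of *Cidea* and *Plin4*, with *Itgb6* (0.93) and *Hrc* (0.76) the most like, rested on few UMIs.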

How the data were processed

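Single-cell libraries of mouse liver (10x Genomics 3′ chemistry) were compared, 1 per condition. The deposited matrices hold raw UMI counts, which the authors made with Cell Ranger (7.2.0 per the labels); the paper names mm10 and the labels GRCm39, so coordinates come only from GENCODE M21 and RefSeq tables on GRCm38, where 52081 of 55357 gene IDs were found and 3276 were not. How barcodes were called as cells is not given in the sources used here.

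Cells needed 500 UMIs, 200 genes and at most 30% mitochondrial UMIs. Of 36990 barcodes, 39 exceeded that limit and Scrublet marked 6, under 0.5% of cells, so doublets were in effect not removed; 36945 cells were kept. The median UMI count per cell was 2939 in control, 2336 in HFD and 2173 in CCl4. Counts were scaled to 10000 per cell, and 2000 variable genes without the 10 described, 30 components, 15 neighbours and Leiden resolution 1.0 gave 36 clusters, of which 34 were named from 17 marker lists in 14 classes (scanpy 1.11.5, python 3.11.15). The rule for naming clusters was changed after the clusters were seen. The members and lists were chosen with earlier results of these data known.

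Intervals are exact 95% intervals (Poisson for CPM, conditional for ratios, Clopper-Pearson for shares; scipy 1.17.1). A gene was called at a fold of 2 on CPM plus 1 where 1 library reached 5 CPM. Shares of cells were also given after thinning to 1000 UMIs, which left out no cell. Named genes are the 10 members, the called genes of the lists and the 3 genes of highest correlation. The scripts were tested on simulated data. Alternatives covered the cell filters, clustering, scaling, pseudocount, minimum level, fold and the free RNA reference.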

Additional observations from a re-analysis of the deposited data

Results flagged for a closer look

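The pericentral over periportal ratio of 3 genes lay on opposite sides of 1 in different libraries, and the differences between libraries were not tested. *Cd36* was at 10.2 in control, 1.93 in HFD and 0.890 in CCl4. *Fabp5* was at 2.28 in control, 0.838 in HFD and 2.52 in CCl4, where its levels were 6.58 and 2.61 CPM, below the T cell-like 20.7 CPM. *Plin2* was at 0.910 in control, 1.21 in HFD and 1.16 in CCl4. In clusters below 2% mitochondrial UMIs the CCl4 intervals of all 3 genes included 1.

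Cells of CCl4 left without a class name, 718 in number and used in no comparison, held more of 3 genes than hepatocyte-like cells did. *Plin2* was 1.10-fold higher (1.02 to 1.18, 822 UMIs), *Plin4* 5.26-fold higher (3.02 to 8.90, 22 UMIs) and *Fabp5* 3.83-fold higher (2.46 to 5.81, 31 UMIs), at 17.0 CPM of *Fabp5* beside 20.7 CPM in T cell-like cells. Of these cells, 661 formed a cluster led by the predicted genes *Gm43189* and *Gm43361*.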

How the results depend on the processing

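No paired analysis was possible because each condition had 1 library. The 7 ratios of called genes kept their direction under every alternative in which they were computed, and 21 of 67 such values moved beyond the counting interval. For *Cidec* and *Fabp5*, whose treated levels were below the T cell-like ones, taking off the T cell-like CPM left no ratio. *Cd36* ranged from 1.14 to 7.73 in HFD and from 2.35 to 6.72 in CCl4, *Fabp1* in HFD from 1.54 to 2.91, *Plin5* in CCl4 from 1.45 to 3.03, *Cidec* from 0.152 to 0.188 in HFD and from 0.208 to 0.271 in CCl4, and *Fabp5* in CCl4 from 0.00476 to 0.00864. With the T cell-like CPM taken off, 0 genes were higher and 3 lower in HFD (*Cideb*, *Cidec*, *Plin2*). In CCl4, 1 was higher (*Cd36*) and 6 were lower (*Cideb*, *Cidec*, *Plin2*, *Fabp1*, *Fabp2*, *Fabp5*). That step takes off a larger share in the treated libraries, which by itself lowers ratios to control. The share of all genes past the fold after it is not given, so no fall is read from these counts by themselves. Of the called list genes, 3 of 9 kept their call in HFD and 6 of 9 in CCl4. With at least 50 CPM required, 0 were lower in HFD, and 1 was higher and 1 lower in CCl4. A fold of 1.5 gave 4 higher in HFD. The shares of all genes called at these 2 settings are not given, so nothing is read from these counts. The 39 pairs above the reference range became 98 with hepatocyte-like clusters of at least 2% mitochondrial UMIs as the base and 100 against the median reference gene. The 1 gene with the same zone direction in every library became 3 at Leiden resolution 2.0 (*Fabp1*, *Fabp2*, *Fabp5*), 3 in clusters of at least 2% (*Cd36*, *Fabp1*, *Fabp2*) and 0 in clusters below 2%. The split below 2%, the omission of CCl4 cells in mostly HFD clusters and the T cell-like CPM taken off list genes were chosen after seeing the data. The cause of these changes was not tested. Depth limited *Cidea* and *Plin4*, with 1 to 47 UMIs in hepatocyte-like cells.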

Other observations

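*Cd36* also differed between the libraries in classes of blood-forming cells. In erythroid cell-like cells it stood at 16.9 CPM (10.3 to 26.1) in control, 99.8 CPM (77.5 to 127) in HFD and 153 CPM (126 to 184) in CCl4, ratios to control of 5.90 (3.54 to 10.3) and 9.04 (5.59 to 15.4). T cell-like levels of *Cd36* were 13.6, 75.4 and 60.1 CPM, and the erythroid level was 1.25 (0.696 to 2.16), 1.32 (1.01 to 1.72) and 2.54 (2.02 to 3.19) of them. In CCl4 this was 1.27 of the hepatocyte-like level (1.05 to 1.54), above the range of the 12 reference genes, 0.839 to 1.03. In myeloid progenitor-like cells *Cd36* stood at 7.69 CPM (4.87 to 11.5), 49.2 CPM (35.3 to 66.8) and 61.8 CPM (41.1 to 89.3), below the T cell-like level in control and HFD. In CCl4 it was 1.03 of the T cell-like level (0.670 to 1.52). In no library was *Cd36* in this class above the T cell-like level beyond counting error. *Fabp5* in erythroid cell-like cells stood at 608, 1424 and 9.47 CPM in control, HFD and CCl4, the same order as in hepatocyte-like cells. T cell-like cells had that order too, at 243, 934 and 20.7 CPM. The erythroid level was 2.51 (2.26 to 2.78), 1.52 (1.42 to 1.63) and 0.457 (0.178 to 0.981) of the T cell-like level. It was above the reference range in control only, and the part of free RNA in the order was not tested.

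*Plin5* in endothelial cell-like cells of CCl4 stood at 45.1 CPM (29.2 to 66.5, 25 UMIs), against 5.40 CPM (1.47 to 13.8, 4 UMIs) in control and 10.3 CPM (4.93 to 18.9, 10 UMIs) in HFD. Its ratio to hepatocyte-like cells in CCl4 was 1.45 (0.931 to 2.16), and the lower end lay within the reference range of 0.624 to 0.954. Against T cell-like cells *Plin5* there was at 2.08 (1.28 to 3.26) in CCl4, 1.09 (0.266 to 3.39) in control and 0.656 (0.303 to 1.27) in HFD. *Fabp1* lay above the reference range in granulocyte-like cells of control, at 0.554 of the hepatocyte-like level (0.547 to 0.560), and in erythroid cell-like cells of control, at 0.471 (0.462 to 0.479). *Fabp2* lay above it in granulocyte-like cells of CCl4, at 1.28 (1.01 to 1.60), with the lower end beside an upper reference value of 1.01.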
